A study of Mus musculus with 16 samples.

Results

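H/ACA box small nucleolar RNAs were followed in the proximal jejunum, the upper middle stretch of the small intestine, of male CBA/J mice, an inbred strain, aged 8 weeks. The members are the genes whose symbol, mapped from the Ensembl identifier in the files, begins with Snora. They number 39 of the 37620 genes listed. The 16 libraries form 4 groups of 4: 8.5 Gy of gamma rays on a diet supplemented with methionine (300%), 0 Gy on that diet, 8.5 Gy on a diet with adequate methionine, and 0 Gy on the adequate diet. A span of 6 days is stated, and the sources used here do not say whether this was counted from the change of diet or from the exposure. No genotype other than the strain is named for any group. The labels do not say whether the whole body was exposed. Nothing in the labels ties a library to a named animal or batch, so p-values measure the spread between libraries. The comparisons of dose on the supplemented and on the adequate diet share no library with each other, and they share their libraries with the comparisons of diet.

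H/ACA box RNAs are short nucleolar RNAs that fold into a pair of hairpins, each followed by a short single-stranded box. A pocket in a hairpin pairs with ribosomal or spliceosomal RNA and places a uridine in the active site of dyskerin, which turns it into pseudouridine. Most are cut out of the introns of other genes, called hosts, after splicing, and are protected by the 4 proteins that bind them. In the small intestine, as in other renewing tissues, they serve the making of ribosomes.

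The annotated lengths ran between 121 and 205 bases with a median of 132, and all 39 equalled the length that the files give. An ACA stood exactly 3 bases before the 3′ end in 32 of the 39 members (82.1%). It did so in 0 of 72 C/D box RNAs, the other large class of nucleolar guide RNAs (symbols beginning with Snord), and in 8.31% of 2875 other transcripts of 121 to 205 bases. The H box, searched on the RNA strand as ANANNA, occurred in the central stretch (of 3 equal ones) of 92.3% of members, 34.7% of the C/D box RNAs and 65.3% of the other transcripts. The C/D box RNAs are shorter, with a median of 78 bases (64 to 238), so their central stretch offers fewer places for a match. By the ACA, and by the H box against the other transcripts of that length range, the members' sequences matched the family's label. By the annotation's gene types, 28 members lie within a protein-coding gene on the same strand and 8 within a gene of another type. For 3 (Snora17, Snora43 and Snora57) no gene of the types searched (protein-coding, long non-coding and transcribed pseudogenes) spans them. The 8 include Snora15, whose host Cct6a is typed as a processed transcript. With a single host counted per member, protein-coding genes first, ribosomal protein genes hold 11 members and small nucleolar RNA host genes (Snhg) hold 6. Snora73a and Snora73b, counted under Rcc1, are also spanned by Snhg3.

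The 3 members inside Snhg12, a long non-coding host gene on chromosome 4, are shown first because they share 1 host and did not change alike. Snora16a lies at chr4:132309465-132309600, Snora44 at chr4:132309941-132310069 and Snora61 at chr4:132310240-132310369, all on the plus strand of GRCm38, the build of the annotation. Snora73a, at chr4:132352775-132352979 on the minus strand, and its near copy Snora73b, at chr4:132352322-132352526, are shown because their reads are hard to tell apart. All sequences are from GENCODE M21, written 5′ to 3′ in DNA letters. Capitals mark the ANANNA match nearest the middle (as the H box) and the ACA within the last 10 bases, and Snora44 has no ACA there. The H box mark rests on position alone. ANANNA matches at 3 places in Snora16a, 1 in Snora44, 2 in Snora61, 3 in Snora73a and 5 in Snora73b.
Snora16a: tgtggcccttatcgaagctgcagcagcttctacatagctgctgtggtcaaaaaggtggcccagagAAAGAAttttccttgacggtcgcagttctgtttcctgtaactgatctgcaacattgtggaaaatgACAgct
Snora44: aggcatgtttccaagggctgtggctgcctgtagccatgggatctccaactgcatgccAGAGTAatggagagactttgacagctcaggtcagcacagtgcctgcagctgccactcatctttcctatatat
Snora61: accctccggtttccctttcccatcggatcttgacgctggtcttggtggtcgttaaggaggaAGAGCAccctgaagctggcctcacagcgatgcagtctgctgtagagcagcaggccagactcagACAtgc
Snora73a: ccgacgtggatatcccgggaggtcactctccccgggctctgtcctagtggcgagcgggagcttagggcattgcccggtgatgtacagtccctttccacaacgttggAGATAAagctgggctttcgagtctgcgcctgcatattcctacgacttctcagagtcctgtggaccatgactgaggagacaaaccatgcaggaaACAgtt
Snora73b: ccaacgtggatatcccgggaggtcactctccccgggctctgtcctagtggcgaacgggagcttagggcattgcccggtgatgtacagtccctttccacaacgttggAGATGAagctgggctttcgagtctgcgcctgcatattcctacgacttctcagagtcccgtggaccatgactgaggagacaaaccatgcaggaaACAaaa

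Snora73a and Snora73b have 205 bases each and differ at 7 of them (96.6% identity). Written with the Snora73a base first and counted from the 5′ end, the differences are G3A, G54A, A111G, T164C, G203A, T204A and T205A. A fragment that covers none of these positions matches both genes equally well. RSEM, the counting program, divides such reads by its model, and all 16 of the Snora73a values and 93.8% of the Snora73b values were not whole numbers. Across the family, 21 members had whole counts in every library (within 0.001) and 18 did not, and no member had counts identical to those of another gene. All 16 values were fractional in Snora44, Snora61, Snora52, Snora17 and Snora5c, among others.

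Libraries held between 2566539 and 15510121 counts, with 3 of them under 4000000. All 9 enterocyte markers had counts in every group, and markers of the ileum were near 0, at 0.200 to 1.53 summed CPM (the usual rescaling of counts to a common library size, with TMM factors that align the bulk of genes between libraries). The 4 Paneth cell markers were higher at 8.5 Gy on each diet, at 4937 to 7936 against 1815 to 2539 summed CPM on the adequate diet and 6436 to 10040.0 against 2294 to 3659 on the supplemented diet. The 4 globin genes of red blood cells were lower, at 2.46 to 7.39 against 359 to 582 summed CPM and 2.42 to 26.0 against 118 to 385. All 3 tested B and plasma cell markers were called lower on the adequate diet and 2 on the supplemented diet, and their list of 4 summed to 68.5 to 115 against 224 to 443 CPM and 119 to 165 against 178 to 397 CPM. Of 6 crypt and cycling genes, Olfm4 and Lgr5 were called higher on both diets, and the list summed to 643 to 1494 against 527 to 616 CPM and 833 to 1214 against 597 to 749 CPM. Olfm4 alone averaged 477.5 against 191.2 CPM and 584.4 against 241.5 CPM. The cycling genes Mki67, Pcna, Top2a and Mcm5 were called on neither diet. Their log2 fold changes (8.5 Gy over 0 Gy) were -0.14 and -0.32 for Pcna and 0.04 to 0.43 for Mki67, Top2a and Mcm5. Of 4 goblet cell markers 1 was called higher, and of 4 pancreas markers 3, on the supplemented diet alone. The pancreas list summed to 2.96 to 5.33 against 2.30 to 11.4 CPM on the adequate diet and 4.11 to 10.7 against 2.198 to 3.81 CPM on the supplemented diet. Of the enterocyte and smooth muscle markers 0 were called. At 8.5 Gy, small nucleolar RNAs of all kinds took 8.57% ± 1.51 (SD, n = 4) of counts on the adequate diet, against 3.58% ± 0.478 at 0 Gy. On the supplemented diet they took 11.3% ± 2.70 at 8.5 Gy, against 4.04% ± 0.986 at 0 Gy. In these bulk samples a change in the number of cells of a type and a change in RNA per cell cannot be told apart. The part of these shifts in the results on single members was not tested.

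The 39 H/ACA box RNAs took a larger share of the counts after irradiation, and the 72 C/D box RNAs gained more. On the adequate diet the 39 members held 0.507, 0.497, 0.429 and 0.441% of counts in the 8.5 Gy libraries, against 0.397, 0.396, 0.284 and 0.379% in the 0 Gy libraries. All 4 irradiated libraries lay above all 4 unirradiated ones. In the supplemented groups the share was 0.691, 0.565, 0.474 and 0.335% at 8.5 Gy, against 0.315, 0.409, 0.321 and 0.330% at 0 Gy. There the fourth irradiated library fell among the unirradiated ones. The difference was 0.104 percentage points on the adequate diet and 0.173 on the supplemented diet, with exact two-sided permutation p = 0.0286 and p = 0.0571. The smallest p that 4 against 4 libraries allow is 0.0286, and with Benjamini-Hochberg adjustment over the 10 tests of summed counts the p-values were 0.0571 and 0.0952. When libraries were permuted within each diet, which allows 4900 regroupings, the mean difference of 0.138 points had an exact p = 0.00327 (adjusted 0.0163). The adequate difference was 0.0777 points (exact permutation p = 0.0571) without the third 0 Gy library, and the supplemented one was 0.233 points (exact permutation p = 0.0286) without the fourth 8.5 Gy library and 0.114 points without the first.

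The log2 ratio of H/ACA box to C/D box counts tests the difference between genes with Snora and with Snord symbols. It does not depend on the scaling of a library. Small nucleolar RNA genes with other symbols are in neither sum. On the adequate diet all small nucleolar RNA genes held 8.57% of counts at 8.5 Gy, where the Snora sum was 0.468% and the Snord sum 3.71%. At 0 Gy these were 3.58%, 0.364% and 1.51%. On the supplemented diet they were 11.3%, 0.516% and 4.87% at 8.5 Gy and 4.04%, 0.344% and 1.74% at 0 Gy. The log2 ratio on the adequate diet averaged -2.97 ± 0.32 at 8.5 Gy and -2.06 ± 0.16 at 0 Gy (SD, n = 4 each). Under supplementation the log2 ratio averaged -3.25 ± 0.21 at 8.5 Gy and -2.31 ± 0.34 at 0 Gy. The ranges did not overlap on either diet, and the differences were -0.91 and -0.95, each with the smallest exact permutation p of 0.0286 (adjusted 0.0571). Leaving out any of the 4 irradiated libraries on the supplemented diet gave -1.01 to -0.86, each with an exact permutation p = 0.0571. Permuted within diet, the difference of -0.93 had an exact p = 0.000408, the smallest that 4900 regroupings can give (adjusted 0.00408). C/D box RNAs took 3.71% ± 0.750 of counts at 8.5 Gy and 1.51% ± 0.227 at 0 Gy on the adequate diet, and 4.87% ± 1.12 at 8.5 Gy and 1.74% ± 0.448 at 0 Gy on the supplemented diet.

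**Figure D1:**
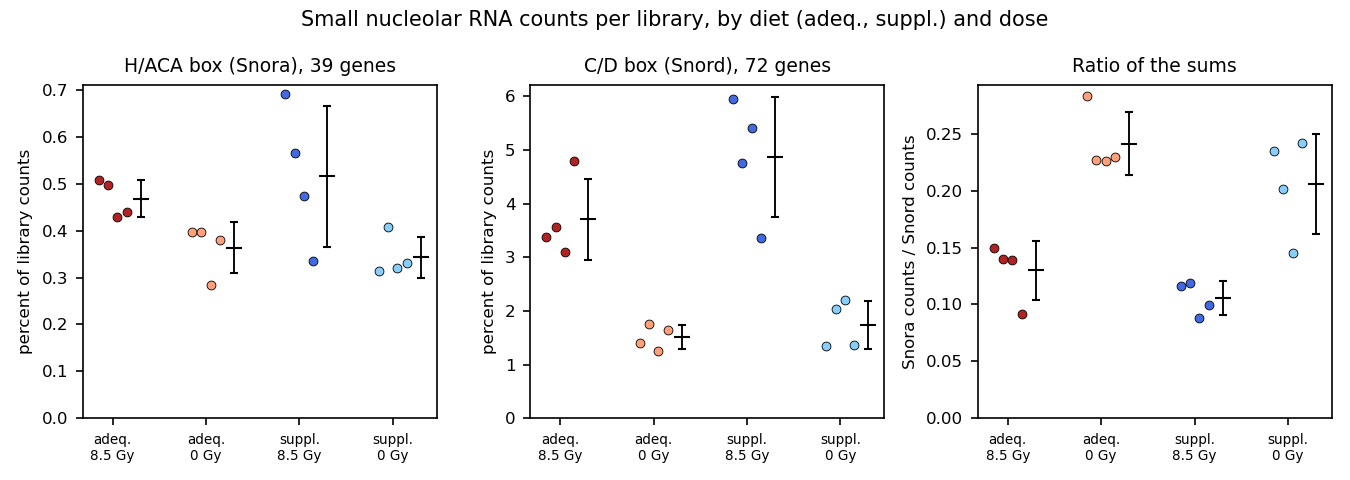
The left and middle panels plot the percent of each library's counts in 39 H/ACA box and 72 C/D box RNAs and the right panel plots the ratio of the sums, by diet (adeq., suppl.) and dose; points are libraries, and the dash with its bar is the mean ± SD of 4. The ratio lies between 0.0877 and 0.15 in the 8 irradiated libraries, and in the 8 unirradiated ones between 0.145 and 0.283.

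Among single members, more were higher than lower at 8.5 Gy when libraries were scaled on all genes, and more were lower than higher when they were scaled on other small RNA genes, as were most genes on that scale. Of the 39, 37 passed the filter on low counts. Snora15 (2 to 15 counts per library) and Snora35 (0 to 4 counts) did not. Snora35 lies within Htr2c, a serotonin receptor gene of the brain, and its host had no more than 0.880 CPM in any library. On the adequate diet 12 of 37 tested members were called higher at 8.5 Gy, where 7.13% of all 16558 genes tested were, and 2 were called lower, where 6.58% of all genes were. On the supplemented diet 11 were called higher, beside 8.03% of all genes, and 1 was called lower, beside 7.21%. Calls are at an adjusted p under 0.05 in edgeR's quasi-likelihood F test, with p-values adjusted by Benjamini and Hochberg's method over all genes tested, which also holds for every adjusted p of a gene given from here on. The median log2 fold change (8.5 Gy over 0 Gy) was 0.50 over the members on the adequate diet and 0.44 on the supplemented diet, and 0.0056 and 0.0071 over all genes. Without the first or the second irradiated library the supplemented median was 0.17 or 0.27. C/D box RNAs had 48 and 47 of 71 tested members called higher, 1 and 2 called lower, and medians of 1.24 and 1.07.

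The members' responses on the 2 diets, which come from separate libraries, ran together. The same 8 members were called higher on both diets, 18 were called on at least 1, and 0 were called in opposite directions. Fold changes had the same sign in 31 of 37, and their correlation across members was 0.82. Members are not independent replicates, and this value is a description. The calls on the 2 diets also share the fit's estimate of spread over all 16 libraries. Agreement between diets over all genes is not given here, so it is not shown to be particular to the members. The libraries of the 2 doses did not overlap for 10 members higher and 2 lower on each diet, with 7 of them higher on both. Of all genes tested, 9.34% had no overlap and were higher and 10.1% lower on the adequate diet. For the supplemented diet these shares were 9.43% and 9.23%.

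**Figure D2:**
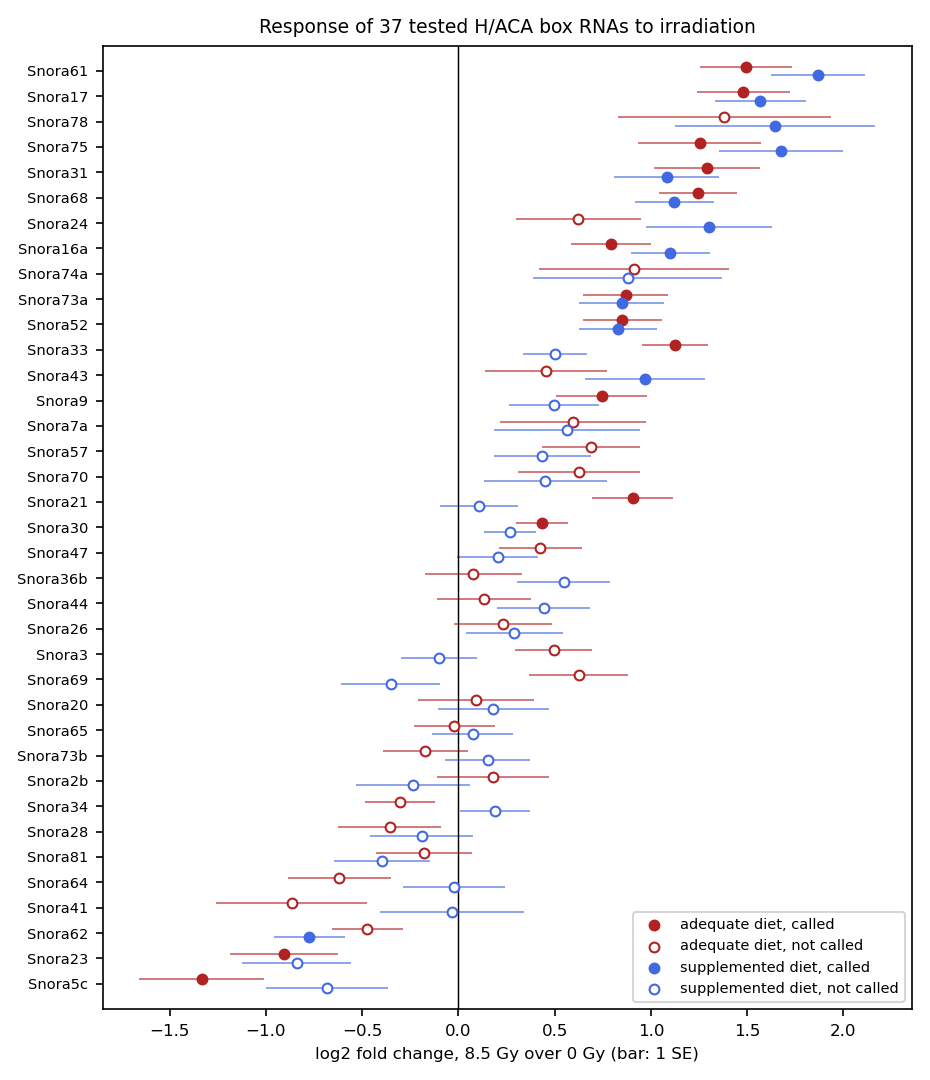
Each row is 1 of 37 tested H/ACA box RNAs, and points give its log2 fold change (8.5 Gy over 0 Gy) on the adequate (red) and supplemented (blue) diet, with bars of 1 SE and filled points for an adjusted p under 0.05. Snora61, Snora17, Snora78, Snora75, Snora31 and Snora68 lie above 1 on both diets, with libraries scaled on all genes. On that scale 7 lie below 0 on both, among them Snora5c, Snora23 and Snora62.

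Per kilobase of length, Snora44 had the highest mean level over the 16 libraries at 5800.0 CPM per kb, followed by Snora24 at 3243, Snora73a at 3183, Snora61 at 2955 and Snora75 at 2134. Snora52 followed at 1662, Snora16a at 1501, Snora28 at 1304, Snora64 at 1054 and Snora68 at 828 CPM per kb. The order of the middle ranks differed with dose. Snora61 had 4137 and Snora28 1171 CPM per kb at 8.5 Gy on the adequate diet, against 1470.0 and 1501 at 0 Gy. The supplemented groups had 4875 of Snora61 and 1190.0 of Snora28 at 8.5 Gy, against 1335 and 1353 CPM per kb at 0 Gy. Snora75 had 3037 and 3216 CPM per kb at 8.5 Gy, against 1277 and 1007 at 0 Gy, on the adequate and supplemented diets. Unscaled by length, Snora44, Snora73a, Snora61 and Snora24 held 52.02% of the family's counts. Snora74a was the tenth by CPM and lower in the order per kilobase, at 567 CPM per kb. The tested members reached down to 22.8 CPM per kb in Snora2b.

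The 3 RNAs of Snhg12 differed in their response. Snora61 increased most, Snora16a less, and Snora44 was not called. Snora61, on the adequate diet, had 658, 464, 635 and 395 CPM in the 8.5 Gy libraries, against 188, 271, 156 and 149.6 CPM in the 0 Gy libraries. With supplemented methionine it had 575, 789, 582 and 589 CPM in the 8.5 Gy libraries, against 189, 227, 163 and 116 CPM in the 0 Gy libraries. Every irradiated library exceeded every unirradiated one of its diet, by a log2 fold change of 1.49 ± 0.24 (SE, adjusted p = 0.000859) and 1.87 ± 0.24 (SE, adjusted p = 0.000154). Snora16a had 249, 298, 247 and 258 CPM in the 8.5 Gy libraries, against 172, 190.3, 118 and 127 CPM in the 0 Gy libraries on the adequate diet. In the supplemented groups it had 354, 253, 275 and 214 CPM in the 8.5 Gy libraries, against 98.2, 180.1, 124 and 108 CPM in the 0 Gy libraries. The doses did not overlap on either diet, and Snora16a was higher by 0.79 ± 0.21 (SE, adjusted p = 0.0177) and 1.10 ± 0.21 (SE, adjusted p = 0.00219). Scaled on other small RNA genes, its adequate value was -0.12. The adequate call was lost without the third (0.69, adjusted p = 0.0573) or the fourth (0.72, adjusted p = 0.0534) 0 Gy library.

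Snora44 had 749, 901, 688 and 520.2 CPM in the 8.5 Gy libraries, against 646, 674, 514 and 771 CPM in the 0 Gy libraries on the adequate diet. Under supplementation it had 1418, 982, 814 and 536 CPM in the 8.5 Gy libraries, against 673, 734, 674 and 677 CPM in the 0 Gy libraries. The doses overlapped on each diet, and the log2 fold changes were 0.13 ± 0.24 (SE, adjusted p = 0.768) and 0.44 ± 0.24 (SE, adjusted p = 0.24). The fourth irradiated library of the supplemented group was its lowest, and without it the value was 0.63 (adjusted p = 0.0373). The host Snhg12 itself was higher on both diets, at 53.2 ± 15.9 CPM at 8.5 Gy, against 30.2 ± 9.43 CPM at 0 Gy on the adequate diet and 55.6 ± 13.4 CPM at 8.5 Gy, against 26.9 ± 2.45 CPM at 0 Gy on the supplemented diet (SD, n = 4 each). Its log2 fold changes were 0.83 ± 0.23 (SE, adjusted p = 0.0234) and 1.04 ± 0.22 (SE, adjusted p = 0.00579). All 3 RNAs overlap an annotated exon of a Snhg12 transcript. Snora16a had whole counts in every library, while all values of Snora44 and Snora61 were fractional. The host's counts and those of Snora44 and Snora61 may therefore hold reads divided between them.

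Because the 3 RNAs lie in 1 gene, their ratios within a library were compared, a comparison chosen after the members' values were seen. The log2 ratio of Snora44 to Snora61 counts (pseudocount 0.5) averaged 0.41 ± 0.38 at 8.5 Gy and 1.79 ± 0.43 at 0 Gy on the adequate diet (SD, n = 4 each). Under supplementation it averaged 0.49 ± 0.60 at 8.5 Gy and 2.03 ± 0.37 at 0 Gy. The ranges did not overlap within either diet. The difference within diets was -1.46, with an exact permutation p = 0.000408, the smallest possible, and an adjusted p = 0.00068 over the 5 pairs of members that share a host. The ratio of Snora16a to Snora44 was higher by 0.73 at 8.5 Gy (exact permutation, adjusted p = 0.00068), and that of Snora16a to Snora61 was lower by 0.73 (difference -0.73, exact permutation, adjusted p = 0.00306). Snora2b and Snora34, which share the host Kansl2, had a difference of 0.10 (exact permutation, adjusted p = 0.746).

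**Figure D3:**
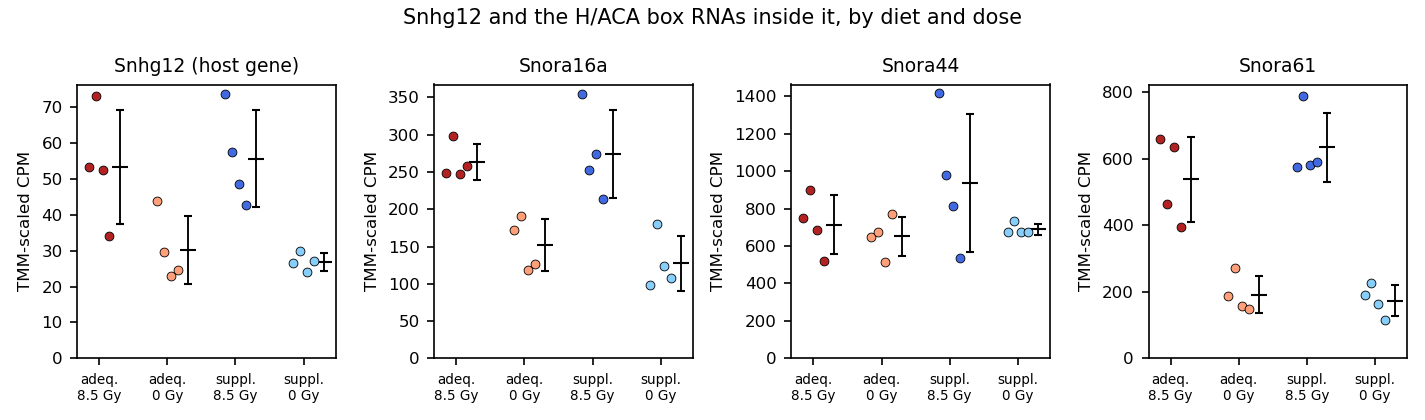
Panels plot the TMM-scaled CPM of the host gene Snhg12 and of Snora16a, Snora44 and Snora61 in every library by diet (adeq., suppl.) and dose, with the mean ± SD of 4 beside the points. Irradiated and unirradiated libraries separate for Snora16a and Snora61 on both diets and overlap for Snora44.

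Snora73a, known as U17 or E1, stands apart in function: in yeast and human cells it takes part in cutting the precursor of 18S ribosomal RNA and is not known as a guide of pseudouridine. It had 896, 805, 725 and 665 CPM in the 8.5 Gy libraries, against 304, 486, 332 and 570.0 CPM in the 0 Gy libraries on the adequate diet. With supplemented methionine it had 1118, 1052, 868 and 597 CPM in the 8.5 Gy libraries, against 487, 499, 492 and 542 CPM in the 0 Gy libraries. All irradiated libraries were above all unirradiated ones of their diet, and the log2 fold changes were 0.87 ± 0.22 (SE, adjusted p = 0.0152) and 0.85 ± 0.22 (SE, adjusted p = 0.0158). Scaled on other small RNA genes these were -0.05 and -0.04. Its copy Snora73b, at a lower level, was at 86.7 ± 29.3 CPM at 8.5 Gy, against 97.1 ± 12.1 CPM at 0 Gy on the adequate diet and at 66.5 ± 15.47 CPM at 8.5 Gy, against 59.6 ± 10.7 CPM at 0 Gy on the supplemented diet. Snora73b was not called, with log2 fold changes of -0.17 ± 0.22 (SE, adjusted p = 0.656) and 0.15 ± 0.22 (SE, adjusted p = 0.695). The log2 ratio of Snora73a to Snora73b was higher by 0.90 at 8.5 Gy within diets (exact permutation, adjusted p = 0.00068 over the 5 pairs). With 7 differing bases, this ratio rests on how reads were divided, and values of each gene are uncertain. Both lie within Rcc1, whose log2 fold changes were 0.06 and -0.19, neither called. The non-coding gene Snhg3 spans both too, and its log2 fold changes were 1.43 ± 0.41 (SE, adjusted p = 0.0302) and 1.10 ± 0.41 (SE, adjusted p = 0.0794). The call on Snora73a was lost on the adequate diet without the 3 libraries under 4000000 counts (0.73, adjusted p = 0.0693), without the third 0 Gy library (0.77, adjusted p = 0.0503) or the first 8.5 Gy library (0.79, adjusted p = 0.0553), and on the supplemented diet without the second 8.5 Gy library (0.77, adjusted p = 0.0564).

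Snora75 and Snora17 were also among the largest increases and are shown for that reason. Snora75, known as U23, lies at chr1:86351169-86351301 on the minus strand (GRCm38), within Ncl, the gene of the nucleolar protein nucleolin. Snora17 lies at chr2:26639190-26639321 on the minus strand, and no gene of the types searched for hosts spans it on that strand. Capitals mark the boxes as before, and ANANNA matches at 6 places in Snora75 and 3 in Snora17.
Snora75: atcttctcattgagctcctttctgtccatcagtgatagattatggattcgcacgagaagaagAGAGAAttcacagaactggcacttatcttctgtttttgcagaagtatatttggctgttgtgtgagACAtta
Snora17: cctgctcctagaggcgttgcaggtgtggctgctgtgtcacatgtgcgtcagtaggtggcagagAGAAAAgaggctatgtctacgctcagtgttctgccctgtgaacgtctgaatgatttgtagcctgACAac

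Snora75 had 406, 466, 331 and 413 CPM in the 8.5 Gy libraries, against 238, 165, 93.2 and 183 CPM in the 0 Gy libraries on the adequate diet. In the supplemented groups it had 563, 448, 472 and 229 CPM in the 8.5 Gy libraries, against 103, 126, 218 and 88.2 CPM in the 0 Gy libraries. The fourth irradiated library of the supplemented group, at 229 CPM, was only just above the highest unirradiated one, at 218 CPM. The log2 fold changes were 1.25 ± 0.32 (SE, adjusted p = 0.0163) and 1.68 ± 0.32 (SE, adjusted p = 0.0027), while the host Ncl had 0.56 ± 0.21 (SE, adjusted p = 0.081) and 0.54 ± 0.21 (SE, adjusted p = 0.0872) and was not called. Snora17 had 82.2, 54.4, 58.3 and 46.6 CPM in the 8.5 Gy libraries, against 25.7, 27.8, 15.4 and 18.8 CPM in the 0 Gy libraries on the adequate diet. On the supplemented diet it had 77.2, 65.6, 56.4 and 44.7 CPM in the 8.5 Gy libraries, against 16.3, 27.8, 21.98 and 15.8 CPM in the 0 Gy libraries. The doses did not overlap, and the log2 fold changes were 1.48 ± 0.24 (SE, adjusted p = 0.000972) and 1.57 ± 0.24 (SE, adjusted p = 0.000503). Its values were fractional, so some reads may have been divided with other genes. Snora43, its neighbour on chromosome 2, had 0.46 ± 0.32 (SE, adjusted p = 0.363) and 0.97 ± 0.31 (SE, adjusted p = 0.0459), and the call on the supplemented diet was lost in 12 of 16 fits that left out 1 library (supplemented 8.5 Gy replicates 1, 2 and 3, supplemented 0 Gy replicates 1, 2, 3 and 4, adequate 8.5 Gy replicates 1, 2 and 3, adequate 0 Gy replicates 2 and 4), with values of 0.82 to 1.09 and adjusted p of 0.0539 to 0.146.

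Snora68, Snora52 and Snora31 were higher on both diets. Snora68 is a guide for 28S ribosomal RNA in human cells. It had 163, 113, 118 and 214 CPM in the 8.5 Gy libraries, against 71.7, 77.01, 55.5 and 53.8 CPM in the 0 Gy libraries on the adequate diet. Under supplementation it had 178, 164, 134 and 121 CPM in the 8.5 Gy libraries, against 58.98, 84.2, 61.1 and 69.3 CPM in the 0 Gy libraries. The doses did not overlap, and the log2 fold changes were 1.24 ± 0.20 (SE, adjusted p = 0.000972) and 1.12 ± 0.20 (SE, adjusted p = 0.00166). Snora52, in Rplp2, was at 293 ± 50 CPM at 8.5 Gy, against 162 ± 28.9 CPM at 0 Gy on the adequate diet and at 292 ± 84.6 CPM at 8.5 Gy, against 164 ± 23.6 CPM at 0 Gy on the supplemented diet (SD, n = 4 each), with log2 fold changes of 0.85 ± 0.20 (SE, adjusted p = 0.0112) and 0.83 ± 0.20 (SE, adjusted p = 0.0115). Scaled on other small RNA genes these were -0.08 and -0.04. Its supplemented libraries overlapped, at 188.7 CPM for the lowest irradiated and 189.1 CPM for the highest unirradiated one. Snora31, in Tpt1, was at 36.6 ± 9.11 CPM at 8.5 Gy, against 14.8 ± 2.23 CPM at 0 Gy on the adequate diet and at 29.4 ± 14.1 CPM at 8.5 Gy, against 13.4 ± 3.21 CPM at 0 Gy on the supplemented diet, with log2 fold changes of 1.29 ± 0.28 (SE, adjusted p = 0.00649) and 1.08 ± 0.27 (SE, adjusted p = 0.0142). Tpt1 encodes a growth-related protein and was itself higher, by 1.29 and 0.68 (adjusted p = 0.00054 and 0.0242).

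Further members passed the test on 1 diet. Snora33, in Rps12, had 86.4, 83.4, 70.04 and 96.3 CPM in the 8.5 Gy libraries, against 44.5, 43.3, 32.1 and 35.4 CPM in the 0 Gy libraries on the adequate diet. With supplemented methionine it had 96.8, 74.5, 67.02 and 49.4 CPM in the 8.5 Gy libraries, against 46.6, 49.1, 51.9 and 54.4 CPM in the 0 Gy libraries, so that the lowest irradiated library fell among the unirradiated ones. Its log2 fold changes were 1.12 ± 0.17 (SE, adjusted p = 0.000587) and 0.50 ± 0.17 (SE, adjusted p = 0.0522). Snora21, in Rpl23, had 0.91 ± 0.21 (SE, adjusted p = 0.0093) and 0.11 ± 0.20 (SE, adjusted p = 0.772), Snora9 had 0.74 ± 0.24 (SE, adjusted p = 0.0467) and 0.50 ± 0.23 (SE, adjusted p = 0.172), and Snora30 had 0.43 ± 0.14 (SE, adjusted p = 0.0414) and 0.27 ± 0.14 (SE, adjusted p = 0.199). The host of Snora30, Srcap, a chromatin remodeller gene, went the other way on the adequate diet, with -0.27 ± 0.09 (SE, adjusted p = 0.0475). The Snora9 call was lost in 10 of 16 fits that left out 1 library (adequate 8.5 Gy replicates 1, 3 and 4, adequate 0 Gy replicates 1, 3 and 4, supplemented 8.5 Gy replicates 2 and 3, supplemented 0 Gy replicates 1 and 2), with values of 0.63 to 0.79 and adjusted p of 0.0549 to 0.122. The Snora30 call was lost in 9 of 16 fits that left out 1 library (adequate 8.5 Gy replicates 1 and 3, adequate 0 Gy replicates 1 and 4, supplemented 8.5 Gy replicates 2 and 3, supplemented 0 Gy replicates 1, 2 and 4), with values of 0.32 to 0.46 and adjusted p of 0.0513 to 0.156. Without the 3 libraries under 4000000 counts Snora30 had 0.43 (adjusted p = 0.0882) and was not called. Scaled on other small RNA genes, the adequate values were -0.18 for Snora9 and -0.47 for Snora30.

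On the supplemented diet Snora24, a guide for 18S ribosomal RNA in human cells, passed. It had 839, 674, 469 and 324 CPM in the 8.5 Gy libraries, against 230.0, 282, 241 and 181 CPM in the 0 Gy libraries. On the adequate diet it had 590.5, 857, 442 and 238 CPM in the 8.5 Gy libraries, against 407, 365, 292 and 315 CPM in the 0 Gy libraries. The doses separated on the supplemented diet, while on the adequate diet the fourth irradiated library, at 238 CPM, was the lowest of all 8. The log2 fold changes were 1.303 ± 0.33 (SE, adjusted p = 0.0137) on the supplemented diet and 0.62 ± 0.32 (SE, adjusted p = 0.215) on the adequate diet, and without that library the adequate value was 0.87 (adjusted p = 0.0454). Snora78 had 1.64 ± 0.52 (SE, adjusted p = 0.0471) on the supplemented diet and 1.38 ± 0.55 (SE, adjusted p = 0.11) on the adequate diet, and the supplemented call was lost in 10 of 16 fits that left out 1 library (supplemented 8.5 Gy replicates 2, 3 and 4, supplemented 0 Gy replicates 1, 3 and 4, adequate 8.5 Gy replicate 3, adequate 0 Gy replicates 1, 3 and 4), with values of 1.37 to 1.79 and adjusted p of 0.0542 to 0.131. None of these members passed the test of a difference between diets in the response to dose.

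**Figure D4:**
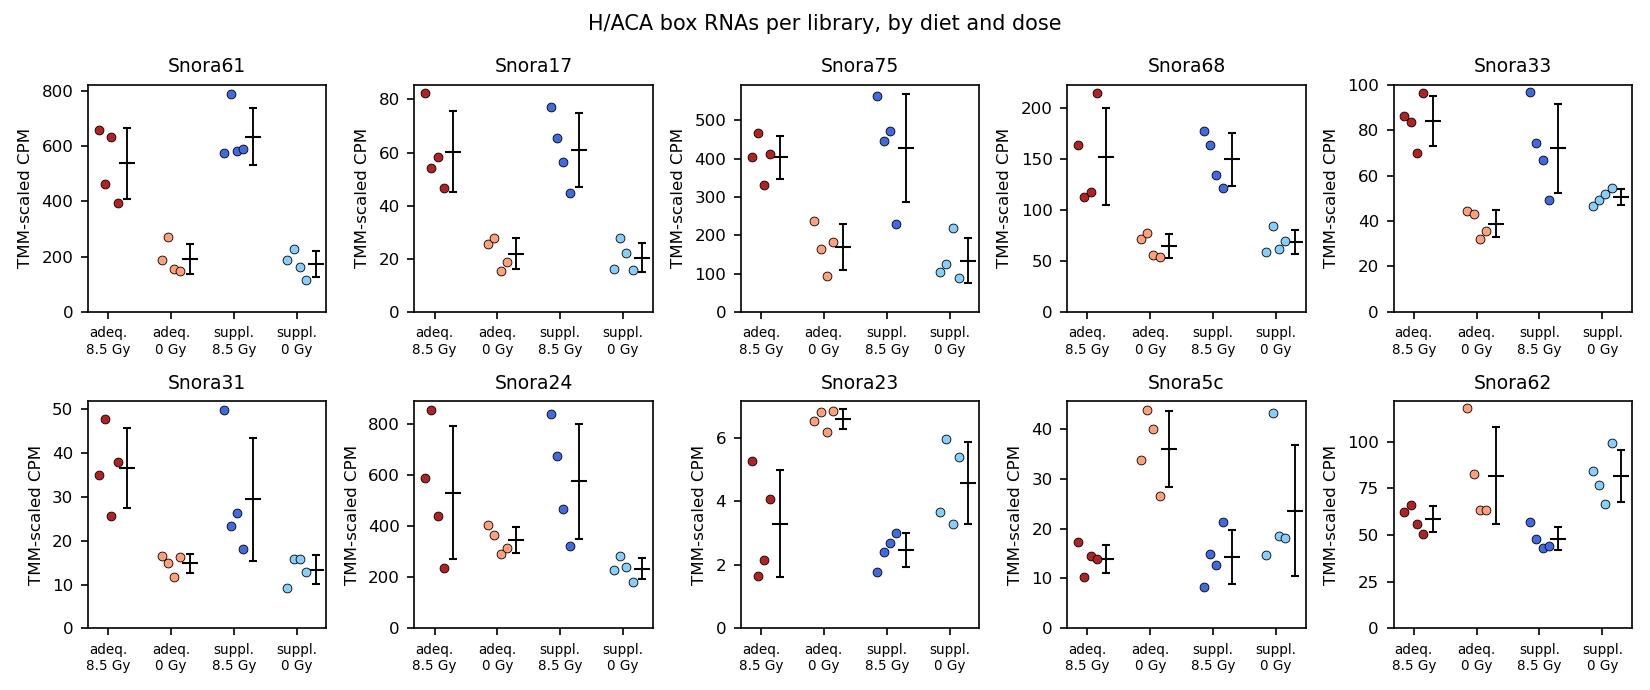
Panels plot the TMM-scaled CPM of 10 H/ACA box RNAs in every library by diet (adeq., suppl.) and dose, with the mean ± SD of 4 beside the points, on axes that start at 0. In the first 7 panels the irradiated mean is the higher on each diet, and for Snora23, Snora5c and Snora62 it is the lower, with libraries scaled on all genes.

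Only Snora5c, Snora23 and Snora62 among the 37 tested members were called lower, each on 1 diet. The sequences of Snora5c and Snora23 are shown as those of members that went against the majority. Snora5c lies at chr11:6620319-6620454 on the minus strand within Tbrg4 and Snora23 at chr7:110046364-110046547 on the plus strand within Ipo7 (both GRCm38). Capitals mark the boxes as before, and ANANNA matches at 1 place in Snora5c and 6 in Snora23.
Snora5c: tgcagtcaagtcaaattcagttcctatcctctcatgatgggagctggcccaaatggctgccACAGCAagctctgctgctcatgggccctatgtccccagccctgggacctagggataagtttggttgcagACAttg
Snora23: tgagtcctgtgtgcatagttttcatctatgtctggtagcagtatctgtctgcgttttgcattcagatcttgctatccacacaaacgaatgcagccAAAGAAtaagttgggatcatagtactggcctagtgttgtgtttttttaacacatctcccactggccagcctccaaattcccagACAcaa

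Snora5c had 17.2, 10.4, 14.4 and 13.8 CPM in the 8.5 Gy libraries, against 33.7, 43.8, 39.9 and 26.4 CPM in the 0 Gy libraries on the adequate diet. In the supplemented groups it had 8.22, 14.9, 12.7 and 21.3 CPM in the 8.5 Gy libraries, against 14.6, 43.1, 18.5 and 18.2 CPM in the 0 Gy libraries. The doses separated on the adequate diet and overlapped on the supplemented one, where the second unirradiated library was far above the other 3. The log2 fold changes were -1.33 ± 0.32 (SE, adjusted p = 0.0137) and -0.68 ± 0.32 (SE, adjusted p = 0.164). Without the 3 libraries under 4000000 counts the adequate value was -1.27 and the call was lost (adjusted p = 0.0501). Its host Tbrg4, which encodes a mitochondrial RNA-binding protein, was called lower on both diets, by -0.49 ± 0.11 (SE, adjusted p = 0.00678) and -0.57 ± 0.11 (SE, adjusted p = 0.00217).

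Snora23 was scarce, with 4 to 77 counts per library. It had 5.28, 1.66, 2.15 and 4.08 CPM in the 8.5 Gy libraries, against 6.52, 6.80, 6.19 and 6.85 CPM in the 0 Gy libraries on the adequate diet. On the supplemented diet it had 1.76, 2.42, 2.69 and 3.005 CPM in the 8.5 Gy libraries, against 3.66, 5.96, 3.30 and 5.38 CPM in the 0 Gy libraries. The irradiated libraries were below the unirradiated ones on each diet, with log2 fold changes of -0.91 ± 0.28 (SE, adjusted p = 0.0407) and -0.84 ± 0.28 (SE, adjusted p = 0.0537). The adequate call was lost in 8 of 16 fits that left out 1 library (adequate 8.5 Gy replicates 2 and 3, adequate 0 Gy replicates 1, 2, 3 and 4, supplemented 8.5 Gy replicates 2 and 3), with values of -0.94 to -0.71 and adjusted p of 0.0529 to 0.115. Without the 3 libraries under 4000000 counts it was -0.78 (adjusted p = 0.111). The host Ipo7, which encodes an importin that carries proteins into the nucleus, had values in the other direction that did not pass, 0.40 ± 0.19 (SE, adjusted p = 0.171) and 0.48 ± 0.19 (SE, adjusted p = 0.0929).

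Snora62, known as E2, is a guide for 28S ribosomal RNA in human cells. It had 56.9, 47.8, 43.3 and 44.1 CPM in the 8.5 Gy libraries, against 84.4, 76.6, 66.7 and 99.6 CPM in the 0 Gy libraries on the supplemented diet. On the adequate diet it had 62.4, 66.4, 55.7 and 50.4 CPM in the 8.5 Gy libraries, against 118, 82.9, 63.3 and 63.2 CPM in the 0 Gy libraries. The doses separated on the supplemented diet alone, and the log2 fold changes were -0.78 ± 0.18 (SE, adjusted p = 0.00936) there and -0.47 ± 0.18 (SE, adjusted p = 0.0957) on the adequate diet. The host Rpsa, the gene of a small-subunit ribosomal protein, was called lower on the supplemented diet, by -1.46 ± 0.39 (SE, adjusted p = 0.0197), and had -0.77 ± 0.38 (SE, adjusted p = 0.189) on the adequate diet.

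Several abundant members were not called on either diet. Snora28, in Eif5, had -0.36 ± 0.27 (SE, adjusted p = 0.405) and -0.19 ± 0.27 (SE, adjusted p = 0.68). Leaving out 1 library moved these between -0.48 and -0.17 and between -0.58 and -0.01, and without the 3 libraries under 4000000 counts the supplemented value was -0.57 (adjusted p = 0.0482). Snora64, in Rps2, had -0.62 ± 0.27 (SE, adjusted p = 0.131) and -0.02 ± 0.26 (SE, adjusted p = 0.97), and its first unirradiated adequate library, at 336 CPM, stood above the other 3, at 128.8 to 171 CPM. Without that library the adequate value of Snora64 was -0.23. Snora74a, known as U19, had 0.91 ± 0.49 (SE, adjusted p = 0.24) and 0.88 ± 0.49 (SE, adjusted p = 0.256). The second unirradiated supplemented library held 164 CPM of Snora74a where the other 3 held 32.6 to 48.5 CPM, and without it the supplemented value was 1.67 (adjusted p = 0.0132). Apart from these and from Snora44 and Snora73b, the tested members without a call had log2 fold changes between -0.87 (Snora41) and 0.69 (Snora57) on the adequate diet and between -0.40 (Snora81) and 0.56 (Snora7a) on the supplemented diet. Standard errors over the 37 tested members were 0.14 to 0.55.

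Where several genes span a member, a protein-coding one was taken as its host, and then the longest. Snora73a and Snora73b are therefore set against Rcc1 and not Snhg3. Snhg3 had log2 fold changes of 1.43 (adjusted p = 0.0302) and 1.10 (adjusted p = 0.0794), and the values below depend on this choice. Members and hosts were compared for the 30 members whose host was tested. Across them the correlation of log2 fold changes was 0.58 on the adequate diet and 0.40 on the supplemented diet, given as descriptions, since members in 1 host share its value. The member exceeded its host in 17 of 30 on the adequate diet and in 14 of 30 on the supplemented diet. Of the called members with a tested host, 8 of 13 on the adequate diet and 5 of 8 on the supplemented diet had a host that was called too. These counts leave direction aside, and on the adequate diet they include Snora30, which was higher (0.43) while its host Srcap was lower (-0.27). Of the 27 tested hosts, 6 and 9 were called higher, beside 7.13% and 8.03% of all genes, and 2 and 2 lower, beside 6.58% and 7.21%. Their median log2 fold changes were 0.37 and 0.44. Snora41 and its host Eef1b2, a translation elongation factor gene, differed: Eef1b2 was higher by 0.73 ± 0.17 (SE, adjusted p = 0.0105) and 0.92 ± 0.17 (SE, adjusted p = 0.00216), and Snora41 had -0.87 ± 0.39 (SE, adjusted p = 0.15) and -0.03 ± 0.38 (SE, adjusted p = 0.968). The annotation places 20 of 36 hosted members over an exon of some host transcript, mostly of a retained-intron kind, and 16 between exons. Where they overlap, member and host may share reads. The hosts of Snora24, Snora26 and Snora74a are not analysed here.

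**Figure D5:**
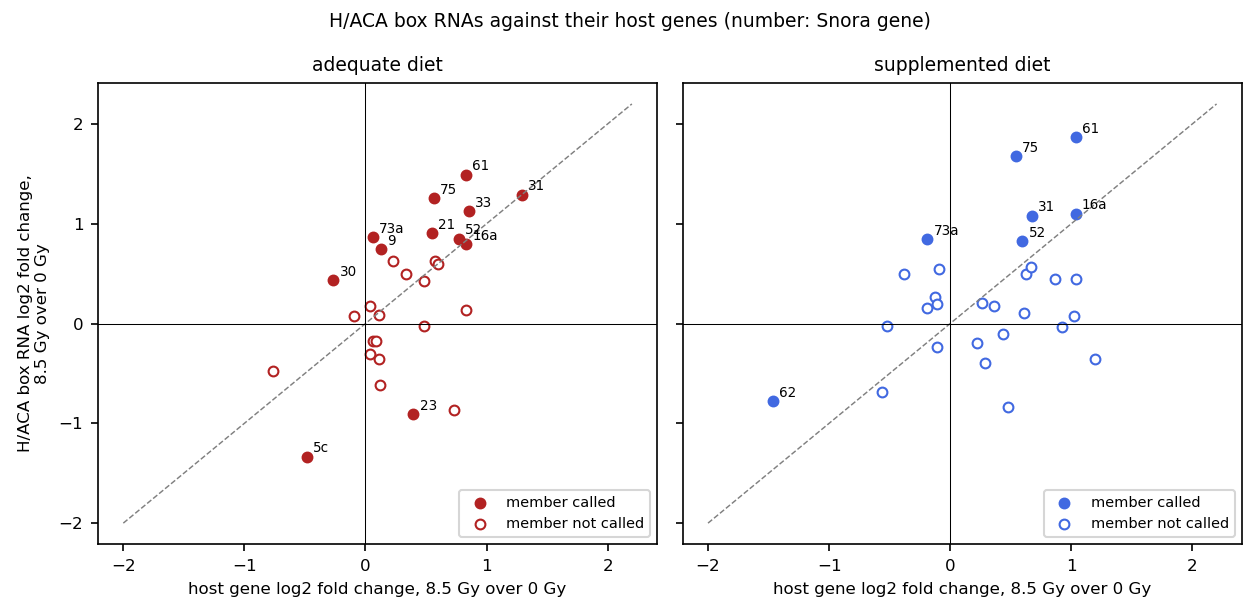
Each point is an H/ACA box RNA with a tested host (1 of the 30 is not drawn), with the log2 fold change (8.5 Gy over 0 Gy) of its host gene on the horizontal axis and its own on the vertical axis, for the adequate (red) and supplemented (blue) diet; filled points are members with an adjusted p under 0.05 and the dashed line marks equal change. Snora61 and Snora75 lie above the line on both diets, and Snora23 lies to the right of 0 and below it vertically.

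The proteins that bind and build H/ACA particles were considered next. Of the 4 core proteins, Dkc1, the gene of the pseudouridine synthase dyskerin, was higher on the adequate diet, at 25.5 ± 2.88 CPM at 8.5 Gy, against 16.2 ± 2.52 CPM at 0 Gy (SD, n = 4 each), with a log2 fold change of 0.62 ± 0.17 (SE, adjusted p = 0.0234). Gar1 was higher too, by 0.68 ± 0.21 (SE, adjusted p = 0.0367), whereas Nhp2 and Nop10 had 0.14 and 0.00. Of the 4, 0 were called on the supplemented diet, with 0.38 ± 0.17 (SE, adjusted p = 0.131) for Dkc1 and 0.37 ± 0.20 (SE, adjusted p = 0.231) for Gar1, and the difference between diets did not pass for any of the 4. Among 9 assembly factors Ruvbl1, an ATPase of the complex that loads these proteins, was called on the adequate diet, by 0.55 ± 0.17 (SE, adjusted p = 0.0473), and 0 on the supplemented diet. Among 5 genes of trafficking, which include Nolc1 and Coil of the nucleolus and Cajal body, 0 were called on either diet. Of 10 stand-alone pseudouridine synthases, which need no guide RNA, Pus3 was called on the supplemented diet, by 0.74 ± 0.19 (SE, adjusted p = 0.0152), and 0 on the adequate diet. The 4 core proteins of C/D particles had 0 calls. Beside the counts in these short lists, 7.13% of all genes were called higher and 6.58% lower on the adequate diet. On the supplemented diet these shares were 8.03% and 7.21%.

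Small Cajal body RNAs guide changes in spliceosomal RNA and carry H/ACA boxes, C/D boxes or both. Of the 9, 5 were called higher on the adequate diet, beside 7.13% of all genes, and 4 on the supplemented diet, beside 8.03%, with medians of 0.73 and 0.68. Scarna2, Scarna3a, Scarna6 and Scarna17 were called on both diets and Scarna3b on the adequate diet. The largest of these changes, 1.34 each, were those of Scarna3a and Scarna3b on the adequate diet. Scarna2 and Scarna17 are of the C/D kind. Scarna8, Scarna9, Scarna10 and Scarna13 were called on neither diet. Terc, the RNA of telomerase, which ends in an H/ACA domain, was at 6.51 ± 1.17 CPM at 8.5 Gy, against 3.25 ± 1.07 CPM at 0 Gy on the adequate diet and at 6.05 ± 0.433 CPM at 8.5 Gy, against 2.996 ± 0.908 CPM at 0 Gy on the supplemented diet. It was higher by 0.96 ± 0.23 (SE, adjusted p = 0.0112) and 1.004 ± 0.23 (SE, adjusted p = 0.007), with no overlap of the doses. Tert, the gene of the telomerase enzyme, was at 4.14 ± 0.563 CPM at 8.5 Gy, against 8.51 ± 2.06 CPM at 0 Gy on the adequate diet and was called lower there, by -1.03 ± 0.21 (SE, adjusted p = 0.00486), and had -0.42 ± 0.21 (SE, adjusted p = 0.198) on the supplemented diet.

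Diet changed no member past the threshold. Between the supplemented and the adequate diet, 0 of 37 were called higher and 0 lower at 0 Gy, where 0.169% and 0.0302% of all genes were. At 8.5 Gy 0 were called higher and 0 lower, as were 0% and 0% of all genes. The test of whether the response to dose differed between diets called 0 higher and 0 lower, again beside 0% and 0% of all genes. DESeq2 and limma called 0 members as well in all 3 comparisons, and edgeR's unadjusted p was under 0.05 for 6, 8 and 4 members. At 0 Gy these were 5 lower and 1 higher on the supplemented diet, beside 5.91% and 6.03% of all genes. At 8.5 Gy all 8 were lower, beside 3.13% of all genes, and 0 higher, beside 2.13%. In the difference of responses all 4 were lower, beside 2.54%, and 0 higher, beside 1.92%. The median log2 difference (supplemented over adequate) was -0.22 at 0 Gy and -0.08 at 8.5 Gy, and leaving out 1 library moved it between -0.39 and -0.11 and between -0.22 and -0.05. The values with the smallest unadjusted p were Snora73b at 0 Gy, at -0.70 ± 0.22 (adjusted p = 0.213), and Snora30 at 8.5 Gy, at -0.53 ± 0.14 (adjusted p = 0.673). In the difference of responses (supplemented minus adequate), Snora21 had -0.80 (unadjusted p = 0.0141), Snora69 -0.98 (unadjusted p = 0.0152), Snora33 -0.62 (unadjusted p = 0.0182) and Snora3 -0.60 (unadjusted p = 0.0491), each with an adjusted p of 0.9999. The summed share differed between diets by -0.0203 points at 0 Gy and 0.0478 at 8.5 Gy (exact permutation p = 0.543 and p = 0.600). Leaving out 1 library moved the first between -0.0471 and -0.0094 points. The second was -0.0105 points without the first supplemented library and 0.108 without the fourth.

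The direction of the family as a whole depended on the scaling. When libraries were scaled on other small RNA genes in place of all genes, the median log2 fold change of all genes moved to -0.91 on the adequate diet and -0.82 on the supplemented diet. On that scale the members' medians were -0.40 and -0.46, with 2 and 3 called higher, beside 1.26% and 1.4% of all genes, and 17 and 18 called lower, beside 75.8% and 72.5% of all genes. There Snora61, Snora17 and Snora75 were among the members that kept positive values on both diets. Relative to the shifted median of all genes, the members' medians were 0.51 and 0.36. By these medians the members were higher relative to most genes and lower relative to other small RNA genes at 8.5 Gy, and the count ratios within a library do not depend on this choice. Scaled on protein-coding genes, 12 and 11 members were called higher and 2 and 1 lower, as with all genes.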

How the data were processed

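Total RNA was depleted of ribosomal RNA (Ribo-Zero Gold) and fragmented before library construction by a TruSeq small RNA protocol, per the labels' protocols. The submitters' processing notes name Bowtie2 2.2.9, RSEM 1.3.0, edgeR 3.2.4 and build NCBIM37. The deposited values are RSEM expected counts per gene, an estimated count that divides reads matching several genes, named as such per the file headers. The files also give a deposited length per gene. Whether counting used strand is not given in the sources used here.

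Expected counts were rounded to whole numbers. Symbols, types, hosts and sequences came from GENCODE M21 (GRCm38), matched by Ensembl ID (32897 of 37620 IDs), since the build of the counts has no annotation here. A host is a protein-coding gene, long non-coding gene or transcribed pseudogene that spans the member on its strand. Protein-coding genes were taken first. Genes were filtered by filterByExpr and scaled by TMM in edgeR 4.0.16 (R 4.3.3). A quasi-likelihood model with a mean per group over 16 libraries was fitted, with Benjamini-Hochberg adjustment over 16558 genes per comparison and calls under 0.05. Summed shares and count ratios were tested by exact two-sided permutation over libraries in Python 3.11.15. The fit was tested on simulated data. DESeq2 1.42.0, limma 3.58.1, other scalings and filters, and leaving out libraries were tried.

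The members and lists were chosen with earlier results of these data known. Named members are those called in any comparison (up to 30), those called against the majority direction, the 10 with the highest mean CPM, and any at 0 in a whole group only. All genes of the machinery list and the hosts of members given in full were also open to naming. Other members named, the ratios of members in 1 host and the exon overlaps were chosen after values were seen. Some items are not reported here. Depth ran between 2566539 and 15510121 counts per library. Replicate numbers follow the order of deposit and pair no libraries.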

Additional observations from a re-analysis of the deposited data

Results flagged for a closer look

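In groups of 4 libraries, the highest or lowest library was singled out where its gap to the nearest other was above Dixon's 95% critical share of the group's range. This was met in 9 of the 96 groups examined, where chance alone gives about 1 in 20 groups. In the 8.5 Gy group of the supplemented diet, replicate 2 had 789.4 CPM of Snora61, against 575 to 589 CPM in the other 3. In the 8.5 Gy group of the adequate diet, replicate 4 had the lowest log2 ratio of H/ACA box to C/D box counts, -3.44, against -2.85 to -2.74. In the 0 Gy group of the supplemented diet, replicate 2 stood above the other 3 for 4 RNAs and for the summed share. It had 43.1 CPM of Snora5c (others 14.6 to 18.5), 15.2 CPM of Snora78 (others 3.50 to 4.601), 734 CPM of Snora44 (others 673 to 677) and 164 CPM of Snora74a (others 32.6 to 48.5). Its summed share was 0.409%, against 0.315 to 0.330% in the other 3. In the 0 Gy group of the adequate diet, replicate 3 had the lowest summed share, 0.284%, against 0.379 to 0.397%. Replicate 1 of that group, the library with the fewest counts, had the highest log2 ratio, -1.82, against -2.15 to -2.12. The causes were not tested.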

How the results depend on the processing

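Dose calls kept their direction in DESeq2, limma, upper-quartile scaling, scaling on protein-coding genes and library totals, and higher members there numbered 8 to 13 on the adequate and 8 to 12 on the supplemented diet. The call on Snora9 (adequate diet) was lost in limma and with upper-quartile scaling, and that on Snora43 (supplemented diet) in limma. Without the 3 libraries under 4000000 counts, the adequate calls on Snora23, Snora30, Snora5c and Snora73a and the supplemented call on Snora43 were lost. At an adjusted p under 0.01, 6 members were higher and 0 lower on the adequate diet, and 5 higher on the supplemented diet. Library totals alone, which shift the median of all genes to -0.16 and -0.20, gave 4 and 3 lower members. Lower members numbered 1 with no filter on low counts and 1 without the 3 libraries under 4000000 counts on the adequate diet, and 2 without those libraries and 2 in DESeq2 on the supplemented diet. Scaling on other small RNA genes gave 2 higher and 17 lower on the adequate diet and 3 higher and 18 lower on the supplemented diet, with medians of -0.396 and -0.461. On that scale the median of all genes moved to -0.908 and -0.82, and a uniform shift of that size turns round any smaller fold change. Members whose signs turned on the adequate diet included Snora16a (-0.121), Snora30 (-0.468), Snora52 (-0.078), Snora73a (-0.047), Snora9 (-0.178) and Snora44 (-0.782). On the supplemented diet they included Snora52 (-0.045) and Snora73a (-0.037). Further members that turned are not listed here. Without the 3 shallow libraries the adequate share difference was 0.106 points (exact permutation p = 0.100), and the log2 ratio differences were -0.873 (exact permutation p = 0.100) on the adequate and -0.996 (exact permutation p = 0.0571) on the supplemented diet. On the adequate diet 3 against 3 libraries were left, which allow no p below 0.100. The causes of the other changes were not tested.

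Leaving out each library in turn gave 9 to 15 higher and 1 to 3 lower members on the adequate diet, and 8 to 13 higher and 1 to 2 lower on the supplemented diet. Medians ran between 0.389 and 0.616 on the adequate and between 0.173 and 0.557 on the supplemented diet. The share difference ran between 0.0777 and 0.118 points on the adequate and between 0.114 and 0.233 on the supplemented diet, and within diets between 0.109 and 0.169. The log2 ratio difference ran between -0.987 and -0.752, between -1.10 and -0.860, and within diets between -1.01 and -0.849. Between diets at 8.5 Gy it ran between -0.445 and -0.201, and without adequate 8.5 Gy replicate 4, -0.445 had an exact permutation p = 0.0286. No paired analysis was possible because the labels carry no replicate numbers. Depth limits the scarce members: of those tested, Snora2b and Snora23 each had as few as 4 counts in a library.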
